A study of Homo sapiens with 4 samples.

Results

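The genes described here are 48 genes of amino acid metabolism and of the transcriptional response run by ATF4, chosen by name: the ATF4 regulators and effectors, the enzymes of serine, asparagine, one-carbon, proline, glutamine, cysteine and polyamine metabolism, and the amino acid transporters. All 48 were found among the 19626 genes of the deposited tables. ES-2, an established human ovarian clear cell carcinoma line that carries the endogenous YAP1-MAML2 (YM) fusion, was transduced with pLKO.1 lentiviruses and grown in DMEM with 10% serum. The shCtl cells received a nontargeting shRNA (n = 2 biological replicates) and the shM2-3 cells an shRNA against MAML2 (n = 2), which also hits the fusion transcript through its MAML2 portion. Per the labels, both groups were infected for 8 h on each of 2 days and RNA was taken 96 h after the first infection, whereas the paper's methods give another schedule. The groups therefore share the line, the fusion, the vector and the infection, and differ in the shRNA.

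ATF4 is a transcription factor whose mRNA is present at all times but is translated mainly when eIF2α is phosphorylated, by GCN2 in amino acid shortage or by PERK in endoplasmic reticulum stress. With C/EBP partners it binds composite C/EBP-ATF elements and induces genes that make or import amino acids, charge tRNAs and supply one-carbon units. In tumor cells the same enzymes feed nucleotide, glutathione and polyamine synthesis, and MYC is known to act on several of them as well. The mRNA level of ATF4 is thus not a measure of its protein or activity.

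Of the 48 genes, 46 had an RPKM (read density, corrected for the length of a transcript and for how many reads mapped) above 1 in at least 1 library and were tested among 12157 genes with edgeR's quasi-likelihood test. The call required both a p, adjusted after Benjamini and Hochberg, of at most 0.05 and at least a 2-fold change. "Rose" and "fell" are used for an adjusted p of 0.05 or less. In shM2-3 cells 7 of the 46 were called lower, 15.2%, against 8.93% of all genes tested, and 3 were called higher, 6.52%, against 9.24% of all genes. Without the fold limit 23 fell (50%, against 36.4% of all genes) and 9 rose (19.6%, against 36.3%), while 14 did not pass. The median log2 fold change of the 46 was -0.27, beside -0.0037 over all genes tested. The genes called lower were CTH, SMS, DDIT3, EIF4EBP1, ODC1, MTHFD2 and ASNS, and those called higher were GLUL, SLC6A9 and SLC7A6. Among the rest, 16 fell with log2 fold changes between -0.94 and -0.32, 6 rose between 0.29 and 0.96, and the 14 that did not pass lay between -0.23 and 0.34. Of the 46, GLUL alone passed the level filter only through shM2-3, so a difference in it was built into that filter.

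**Figure D1:**
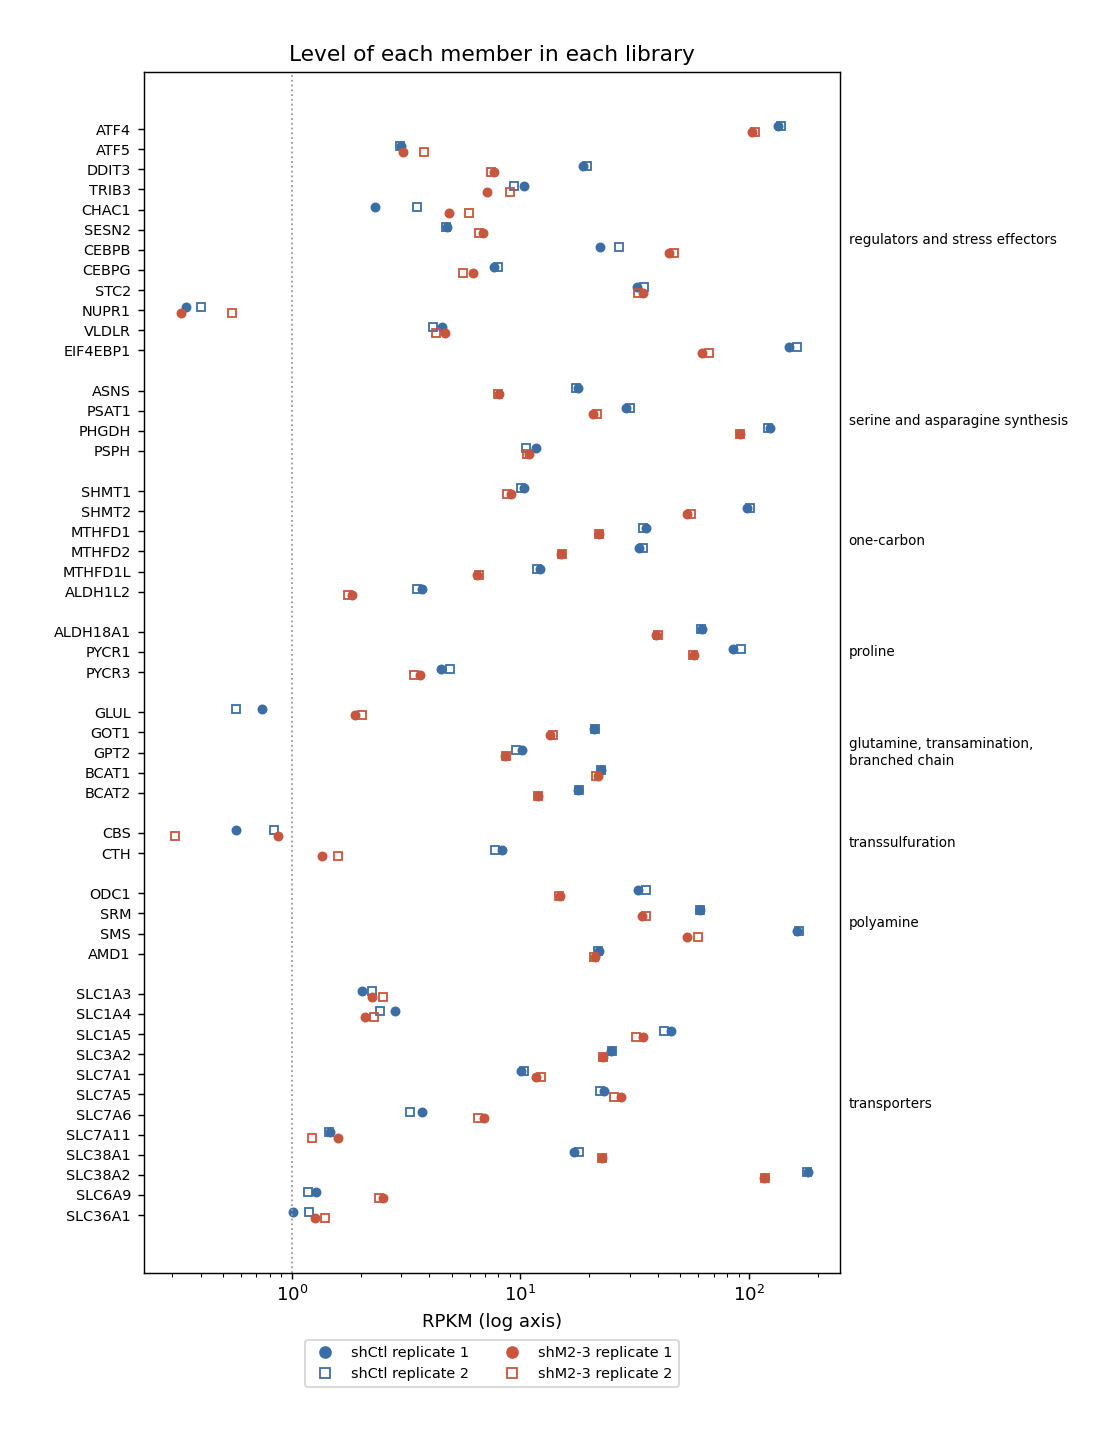
RPKM of each of the 48 genes in each library on a log axis, blue for shCtl and red for shM2-3, filled circles for replicate 1 and open squares for replicate 2, with a dotted line at an RPKM of 1. The groups are well apart for SMS (162 and 165 against 53.6 and 59.8) and overlap for PSPH and SLC7A11, and NUPR1 and CBS lie under the line in every library.

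**Figure D2:**
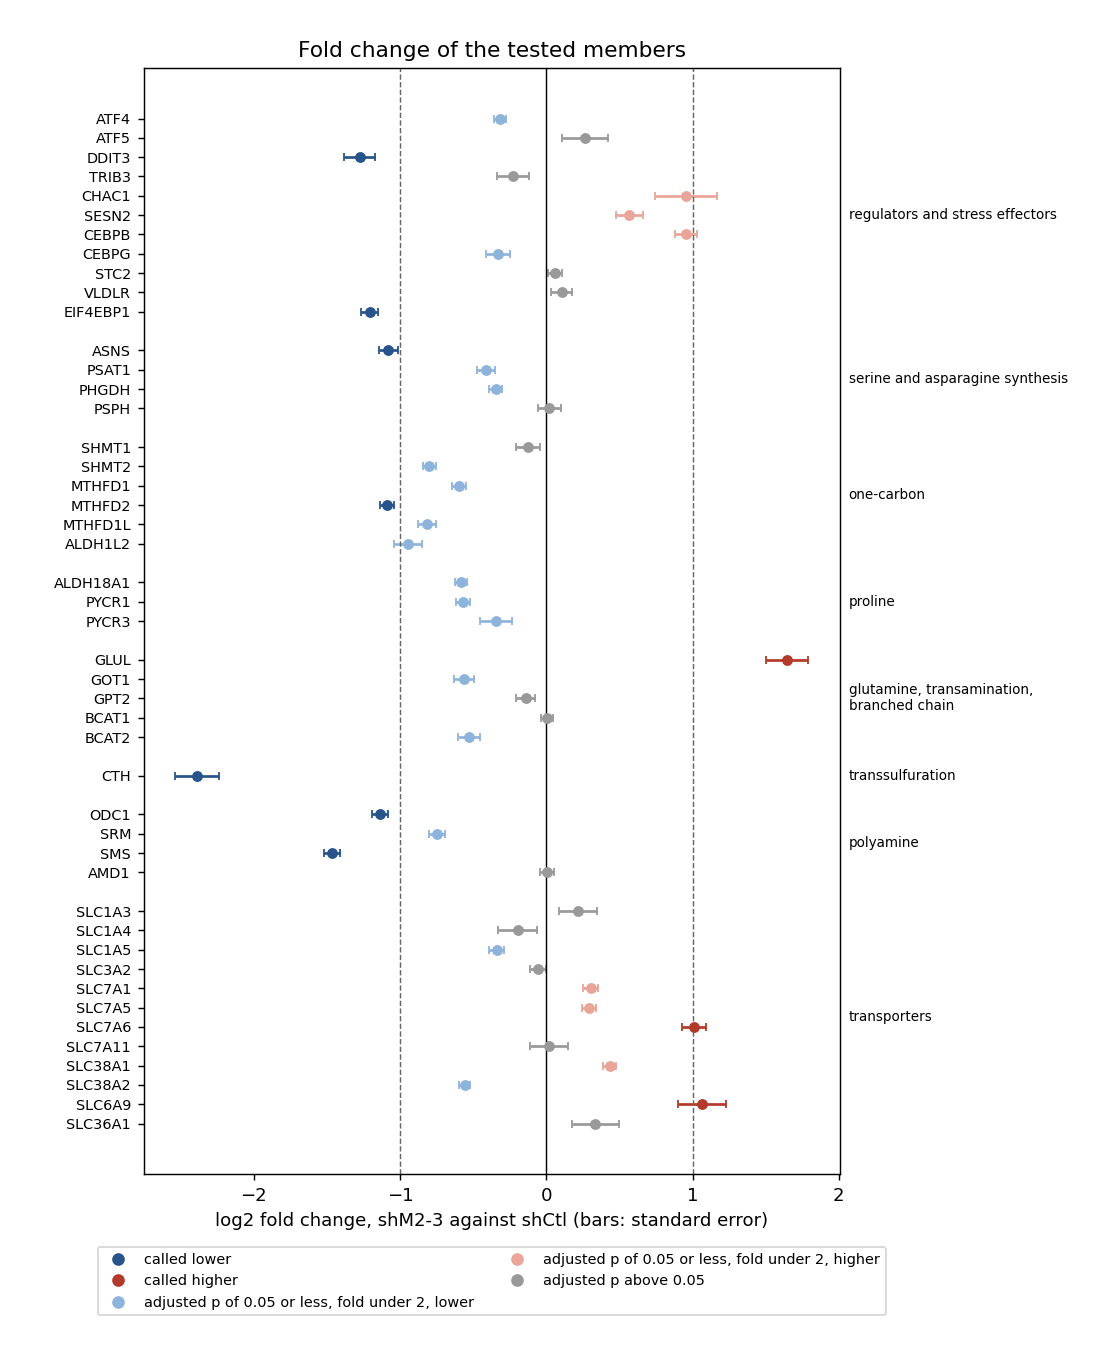
log2 fold change of the 46 tested genes in shM2-3 against shCtl with its standard error, grouped by role, with dashed lines at a fold change of 2. The one-carbon, proline and polyamine enzymes lie at or left of 0, CTH is farthest left at -2.39 and GLUL farthest right at 1.65.

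The libraries held between 20051083 and 23978660 estimated counts, and replicates of a group differed by more than sampling noise. MAML2, the targeted gene, fell from an RPKM of 8.44 ± 0.243 to 3.05 ± 0.0776 (SD, n = 2 each). Its reads can come from native MAML2 or from the fusion, so how far each of these fell cannot be told. YAP1, the other part of the fusion, rose from 81.8 and 83.0 to 106 and 105 (log2 fold change 0.42), and its reads are likewise mixed. MYC, which the paper also lists as downregulated, fell from an RPKM of 99.7 and 99.8 to 12.8 and 12.7 (log2 fold change -2.90). Whether MYC had a part in the changes of the genes described here was not tested. Of the markers of ovarian clear cell carcinoma read as a check of the label, NAPSA and PAX8 were at an RPKM of 0.369 or less in every library, while ARID1A (13.9 and 13.4 against 16.6 and 17.4) and ANXA4 (4.43 and 5.62 against 6.05 and 6.22) were expressed and rose. Of 6 epithelial markers KRT7, KRT8 and KRT18 were abundant and fell, and EPCAM, KRT19 and CDH1 were at 0.361 or less. The summed RPKM of 6 fibroblast markers was 0.910 and 1.10 in shCtl and 1.72 and 1.66 in shM2-3, with COL3A1, DCN, LUM and POSTN at or near 0. COL1A2 was at 0.362 and 0.364 in shCtl and at 0.413 and 0.167 in shM2-3. PDGFRB was called higher, at 0.482 and 0.662 against 1.20 and 1.37 (log2 fold change 1.23), but passed the level filter only through shM2-3. The sum of the 4 leukocyte markers matched of 6 was 57.4 and 57.0 in shCtl and 38.8 and 39.9 in shM2-3, nearly all of it CD68, which fell. PTPRC and CD3E were at or near 0, and CD14 was at 0.0777 and 0.102 in shCtl and at 0.890 and 0.866 in shM2-3. The sum of 4 endothelial markers was 9.40 and 10.6 in shCtl and 5.65 and 5.09 in shM2-3, most of it CDH5, which fell. PECAM1 rose from 0.0376 and 0.0308 to 1.31 and 0.923, but it passed the level filter only through shM2-3 replicate 1. A difference in PECAM1 was thus built into that filter. The part of RNA of other cells in the results was not tested. In these bulk samples, fewer cells of a kind and less RNA per cell cannot be told apart.

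The regulators moved in both directions. ATF4 itself was among the most abundant of the 48 mRNAs, with an RPKM of 134 and 139 in shCtl against 103 and 106 in shM2-3. It fell by 0.32 on the log2 scale (standard error 0.0414, adjusted p = 1.16e-05, edgeR's quasi-likelihood test and Benjamini-Hochberg adjustment, which also give every other adjusted p here unless DESeq2 or limma is named). DDIT3, which encodes the stress factor CHOP, had an RPKM of 18.8 and 19.5 in shCtl and of 7.66 and 7.43 in shM2-3, with no overlap of the groups. Its log2 fold change was -1.28 (standard error 0.104, adjusted p = 1.02e-07). DDIT3 lies on chromosome 12 of hg38 from 57516588 to 57521737, and its exons overlap those of MARS1 and MBD6 in the GENCODE v44 annotation. The libraries carry no strand, so reads of these genes may not be separated, and MARS1 (log2 fold change 0.02, adjusted p = 0.641) and MBD6 (0.64) did not fall.

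The C/EBP partners of ATF4 parted. CEBPB, a basic leucine zipper factor, had an RPKM of 22.3 and 27.0 in shCtl against 44.6 and 46.8 in shM2-3, a log2 fold change of 0.96 (standard error 0.0734, adjusted p = 5.56e-08), just under the fold limit. Its exons overlap the antisense CEBPB-AS1, which was under the level filter. CEBPG, which forms heterodimers with ATF4, went the other way, from 7.64 and 7.97 to 6.21 and 5.63. Its log2 fold change was -0.33 (adjusted p = 0.00265). ATF5, a close relative of ATF4, had an RPKM of 3.0 and 2.97 in shCtl and of 3.07 and 3.79 in shM2-3, and did not pass (adjusted p = 0.141).

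Effectors that limit the stress response or growth also divided. CHAC1, which degrades glutathione, had the largest standard error of these effectors on the log2 scale, with an RPKM of 2.30 and 3.53 in shCtl and of 4.87 and 5.96 in shM2-3. The groups did not overlap, and CHAC1 rose by 0.95 on the log2 scale (standard error 0.210, adjusted p = 0.00108). The values of CHAC1 and CEBPB straddled the fold limit according to the libraries used: without shCtl replicate 2 they were 1.29 and 1.10, and without shM2-3 replicate 1 that of CHAC1 was 1.10. SESN2, a leucine sensor that restrains mTORC1, rose from 4.77 and 4.70 to 6.86 and 6.57, a log2 fold change of 0.57 (adjusted p = 6.78e-05). TRIB3, a pseudokinase that feeds back on ATF4, had an RPKM of 10.4 and 9.33 in shCtl and of 7.12 and 9.01 in shM2-3. TRIB3 did not pass (log2 fold change -0.23, adjusted p = 0.0776), although it did without shM2-3 replicate 2 (-0.41, adjusted p = 0.00767) or without shCtl replicate 2 (-0.31, adjusted p = 0.00694).

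EIF4EBP1, the inhibitor of cap-dependent translation that binds eIF4E, was the third most abundant of the genes in shCtl, at an RPKM of 150 and 162. It stood at 62.1 and 67.1 in shM2-3, 41.4% of the control mean (log2 fold change -1.21, standard error 0.0567, adjusted p = 3.27e-10). STC2, a secreted glycoprotein, and VLDLR, a lipoprotein receptor, did not pass. STC2 had an RPKM of 32.3 and 34.8 against 34.2 and 32.5 (log2 fold change 0.06, standard error 0.0465), and VLDLR of 4.55 and 4.16 against 4.67 and 4.27 (log2 fold change 0.10, standard error 0.0733). NUPR1, a small stress-induced chromatin protein, was under the level filter and not tested, its counts being 43 and 51 (shCtl) and 50 and 76 (shM2-3).

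Since ATF4 acts through C/EBP-ATF elements, the promoters of the 48 genes were searched for the letters TGATGNAA on both strands. RefSeq promoters (GRCh38.p14, 250 bases before to 50 after a start) were matched for 38 of them, and those of NUPR1, EIF4EBP1, PSPH, SHMT2, ALDH1L2, PYCR1, PYCR3, GPT2, BCAT2 and SLC7A11 were not read. The letters were in 12 of the 38, or 31.6%, against 4.46% of the 27305 genes in the table. Counted by promoter, since a gene can have several, they were in 14 of 69, or 20.3%, against 3.62% of 35116. The genes were chosen by name, partly as genes of the ATF4 response, so such an excess was in part built into the choice. The matched stretches are shown because they carry the element in genes that moved in opposite directions. Each is read 5′ to 3′ on the strand of its gene, with the element in capitals (its reverse complement where it lies on the other strand).
ASNS, chr7:97872459-97872486, minus strand: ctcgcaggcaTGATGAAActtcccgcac
MTHFD1L, chr6:150866347-150866374, plus strand: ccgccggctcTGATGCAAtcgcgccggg
GOT1, chr10:99430805-99430832, minus strand: attgcattggTTGCATCAttctcggcag
SLC1A5, chr19:46784894-46784921, minus strand: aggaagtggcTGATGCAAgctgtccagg
CEBPG, chr19:33374061-33374088, plus strand: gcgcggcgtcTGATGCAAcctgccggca
CHAC1, chr15:40953252-40953279, plus strand: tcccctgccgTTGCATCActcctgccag
SLC38A1, chr12:46266503-46266530, minus strand: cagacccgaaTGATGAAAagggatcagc
SLC7A1, chr13:29595664-29595691, minus strand: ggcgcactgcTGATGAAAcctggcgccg
BCAT1, chr12:24949132-24949159, minus strand: gtcttcctgcTGATGCAAtccgctaggt

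Of the 9 stretches, the first 5 belong to genes that fell, the next 3 to genes that rose, and the last to BCAT1, which did not pass. The remaining 3 genes with the element, SLC1A3, SLC1A4 and SLC3A2, did not pass either. The median log2 fold change over the 12 genes with the element was -0.13, and they ranged from -1.08 in ASNS to 0.95 in CHAC1, and 1 of them, ASNS, was called. The 25 tested genes whose promoters were read and lacked it had a median of -0.23, with 12 that fell and 6 that rose. ASNS, SLC7A1 and SLC38A1 share the form TGATGAAA, and ASNS fell while the other two rose. A match of letters is not a bound site, and genes without a match may hold one elsewhere. The E-box CACGTG, the letters that MYC binds, was in 10 of the 38 genes (26.3%, against 8.77% of all genes), and of these 7 fell, 1 rose and 2 did not pass, with 1 called lower and 0 higher. Of the 27 tested genes without it 10 fell and 8 rose, with 5 called lower and 3 higher, beside the 36.4% and 36.3% of all genes that fell and rose.

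Serine synthesis fell in 2 of its 3 steps. PHGDH, the entry enzyme of the pathway, had an RPKM of 123 and 121 in shCtl and of 91.3 and 91.8 in shM2-3, a log2 fold change of -0.35 (standard error 0.0413, adjusted p = 4.67e-06). PSAT1, the aminotransferase that follows, fell from 28.8 and 30.2 to 20.8 and 21.7, a log2 fold change of -0.41 (adjusted p = 3.21e-05). PSPH, which removes the phosphate in the last step, had an RPKM of 11.7 and 10.6 against 10.9 and 10.7, and its groups overlapped (log2 fold change 0.02, standard error 0.0798, adjusted p = 0.818).

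ASNS, which makes asparagine from aspartate and glutamine and is a classic ATF4 target, had the lowest log2 fold change beside these 3 enzymes. Its RPKM was 17.9 and 17.6 in shCtl and 8.04 and 8.01 in shM2-3, so the groups lay far apart against a spread of 0.262 (SD, n = 2) in shCtl. Its log2 fold change was -1.08 (standard error 0.0653, adjusted p = 4.72e-09). ASNS lies on chromosome 7 from 97851677 to 97872542. Per unit of ATF4 mRNA, the RPKM of ASNS was 0.133 and 0.127 in shCtl and 0.0777 and 0.0755 in shM2-3, that of DDIT3 went from 0.140 and 0.141 to 0.0741 and 0.0701, and that of CHAC1 from 0.0171 and 0.0255 to 0.0471 and 0.0562. Such ratios, formed within a library for pairs picked after the values were seen, do not depend on how libraries were scaled.

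One-carbon metabolism runs in parallel in mitochondria and cytosol, carrying the carbon of serine on folate toward purines and thymidylate. The 4 mitochondrial enzymes among the 48 genes fell, while MTHFD2L, a mitochondrial relative of MTHFD2 read with the related genes, did not pass (RPKM 1.17 and 1.31 against 1.09 and 1.17, log2 fold change -0.07, adjusted p = 0.693). MTHFD2, the mitochondrial dehydrogenase and cyclohydrolase, had an RPKM of 33.1 and 34.4 in shCtl and of 15 and 15.3 in shM2-3. It was called lower (log2 fold change -1.09, standard error 0.0461, adjusted p = 1.10e-10). MTHFD2 lies on chromosome 2 from 74186172 to 74217565, and GENCODE v44 names 7 pseudogenes after it, with which reads could be split.

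SHMT2, which splits serine into glycine and a one-carbon unit in mitochondria, fell from 97.9 and 101 to 53.3 and 55.9 (log2 fold change -0.80, standard error 0.0446). MTHFD1L, which releases formate from mitochondria, went from 12.2 and 11.8 to 6.44 and 6.59 (log2 fold change -0.81, standard error 0.0594). ALDH1L2, which oxidizes formyl-folate there, had an RPKM of 3.72 and 3.52 against 1.83 and 1.75, 49.6% of control and a log2 fold change of -0.94 (standard error 0.0924). In each of these genes the 2 groups were separate and the adjusted p was 6.61e-07 or less.

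Of the 2 cytosolic enzymes 1 fell and the other did not pass. Exons also overlap between SHMT1 and SMCR8, SHMT2 and NDUFA4L2, MTHFD1 and ZBTB25, MTHFD2 and SLC4A5, and ALDH1L2 and WASHC4, so these counts carry the same doubt as those of DDIT3. MTHFD1, the trifunctional cytosolic enzyme, fell from 35.4 and 34.2 to 22 in both libraries (log2 fold change -0.60, standard error 0.0479). SHMT1, the cytosolic counterpart of SHMT2, had an RPKM of 10.3 and 10.0 in shCtl and of 9.11 and 8.71 in shM2-3, and did not pass (log2 fold change -0.13, adjusted p = 0.180), although limma on log2(RPKM + 0.1) passed it (-0.19, adjusted p = 0.0267). The within-library ratio of SHMT2 to SHMT1 RPKM was 9.46 and 10.1 in shCtl and 5.86 and 6.42 in shM2-3.

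Proline synthesis from glutamate fell at every step measured. ALDH18A1, the first mitochondrial enzyme, went from an RPKM of 62.0 and 61.8 to 39.0 and 39.9 (log2 fold change -0.58, standard error 0.0419, adjusted p = 2.80e-08). PYCR1, the mitochondrial reductase that completes proline, went from 85.1 and 92.3 to 57.5 and 56.6 (log2 fold change -0.57, standard error 0.0468, adjusted p = 1.11e-07). PYCR3, a low-abundance cytosolic reductase, had an RPKM of 4.48 and 4.90 in shCtl and of 3.65 and 3.42 in shM2-3. The fall of PYCR3 (log2 fold change -0.34, adjusted p = 0.0125) was the least certain, with an adjusted p of 0.0904 without shCtl replicate 2, 0.0618 without shM2-3 replicate 2 and 0.0600 by DESeq2.

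GLUL, glutamine synthetase, was the member that rose most. Its RPKM was 0.743 and 0.569 in shCtl and 1.90 and 2.03 in shM2-3, on counts of 149 and 116 (shCtl) and 465 and 450 (shM2-3). The log2 fold change was 1.65 (standard error 0.144, adjusted p = 2.18e-07), though the level stayed low in both groups, and on the log2(RPKM + 1) scale the change was 0.84. GLUL lies on chromosome 1 from 182378098 to 182392206.

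Among the aminotransferases, GOT1, the cytosolic aspartate enzyme, fell from 21.1 and 21.3 to 13.5 and 13.9 (log2 fold change -0.56, standard error 0.0703). GPT2, the mitochondrial alanine enzyme, had an RPKM of 10.2 and 9.60 against 8.54 and 8.63 and did not pass (log2 fold change -0.14, adjusted p = 0.0740), but it did with total counts in place of TMM (-0.18, adjusted p = 0.0308). Of the pair that removes the amino group of branched-chain amino acids, cytosolic BCAT1 did not pass (22.5 and 22.4 against 21.8 and 21.3, log2 fold change 0.01, standard error 0.0403), whereas mitochondrial BCAT2 fell from 17.9 and 18.1 to 11.9 in both libraries (log2 fold change -0.53, standard error 0.0732, adjusted p = 2.03e-05). The difference between the members of the pair was not tested.

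CTH, cystathionine gamma-lyase, which releases cysteine in the last step of transsulfuration, fell furthest of all 46 genes. Its counts were 416 and 396 (shCtl) and 83 and 88 (shM2-3), an RPKM of 8.30 and 7.77 against 1.35 and 1.59. Only 18.3% of the control RPKM was left, and the log2 fold change was -2.39 (standard error 0.149, adjusted p = 6.73e-09). CTH lies on chromosome 1 from 70411218 to 70439851. CBS, the enzyme of the step before, was under the level filter, its counts being 94 and 140 (shCtl) and 175 and 56 (shM2-3). The shM2-3 replicates of CBS stood on either side of both shCtl libraries, and its reads are uncertain because hg38 carries a near-identical copy of the gene.

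Polyamines are made from ornithine, with aminopropyl groups that come from methionine. Of the 4 enzymes 3 fell (75%, beside 36.4% of all genes tested). ODC1, ornithine decarboxylase, the entry enzyme, had an RPKM of 32.7 and 35.3 in shCtl and of 14.8 and 14.7 in shM2-3 (log2 fold change -1.14, standard error 0.0558, adjusted p = 5.13e-10). SRM, spermidine synthase, went from 61.1 and 61.0 to 34.2 and 35.4, a log2 fold change of -0.75 (standard error 0.0566, adjusted p = 4.88e-08). SMS, spermine synthase, had the second highest level of the 48 genes in shCtl, at 162 and 165, and stood at 53.6 and 59.8 in shM2-3. It was called lower (log2 fold change -1.46, standard error 0.0532, adjusted p = 2.24e-11).

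AMD1, which decarboxylates S-adenosylmethionine to supply the aminopropyl groups, stood apart from the other 3. Its RPKM was 22 and 21.8 in shCtl and 21.1 and 20.9 in shM2-3 (log2 fold change 0.0042, standard error 0.0491, adjusted p = 0.944). The ratio of SMS to AMD1 RPKM was 7.37 and 7.55 in shCtl and 2.54 and 2.86 in shM2-3, and that of SMS to SRM 2.65 and 2.70 against 1.57 and 1.69. ODC1 lies on chromosome 2 from 10439968 to 10448327 and SMS on chromosome X from 21940709 to 21994837. Both ODC1 and SRM were among the genes with an E-box in a promoter.

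**Figure D3:**
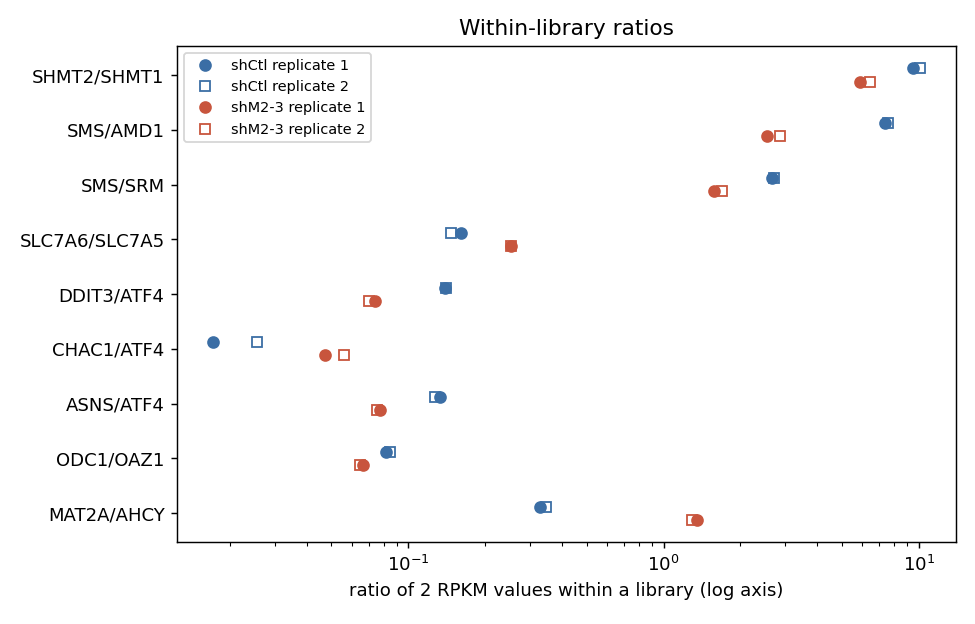
Ratio of the RPKM of 2 genes within each library, on a log axis, for 9 pairs of related genes, blue for shCtl and red for shM2-3, filled circles for replicate 1 and open squares for replicate 2. The groups are separate in every pair, for example 9.46 and 10.1 against 5.86 and 6.42 for SHMT2 to SHMT1.

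Of the 12 transporters 5 rose (41.7%, beside 36.3% of all genes tested) and 2 fell (16.7%, beside 36.4%). Their median log2 fold change was 0.25. SLC38A2, a sodium-coupled importer of small neutral amino acids and the most abundant of the 48 mRNAs, fell from an RPKM of 181 and 179 to 117 in both libraries. Its log2 fold change was -0.56 (standard error 0.0359, adjusted p = 9.26e-09). SLC38A1, its close relative, rose from 17.2 and 18.1 to 22.8 and 22.6, a log2 fold change of 0.43 (standard error 0.0427, adjusted p = 7.21e-07). SLC1A5, the main glutamine carrier of many tumor cells, fell from 45.4 and 42.4 to 34.5 and 31.9 (log2 fold change -0.34, adjusted p = 4.68e-05).

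The light chains that pair with SLC3A2 were followed with it. SLC3A2, the CD98 heavy chain, had an RPKM of 24.9 and 25.2 in shCtl and 23 in both shM2-3 libraries and did not pass (log2 fold change -0.06, standard error 0.0524), but did by limma on log2(RPKM + 0.1) (-0.12, adjusted p = 0.0383). SLC7A5, the light chain for large neutral amino acids, rose from 23.1 and 22.4 to 27.4 and 25.8 (log2 fold change 0.29, adjusted p = 8.22e-05). SLC7A6, which exchanges cationic for neutral amino acids, rose more, from 3.73 and 3.28 to 6.94 and 6.53, and its share relative to SLC7A5 went from 0.161 and 0.147 to 0.253 in both libraries. The log2 fold change of SLC7A6 was 1.01 (standard error 0.0814, adjusted p = 9.24e-08), so close to the limit that the call was lost at 0.92 without shCtl replicate 2, at 0.97 without shM2-3 replicate 1 and at 0.97 with total counts. SLC7A6 lies on chromosome 16 from 68264516 to 68301823, and SLC7A6OS, with which its exons overlap, did not pass (log2 fold change -0.14). SLC7A11, the cystine-glutamate exchanger, had an RPKM of 1.47 and 1.45 in shCtl and of 1.6 and 1.22 in shM2-3, and the groups overlapped (log2 fold change 0.02, adjusted p = 0.903). Its exons overlap the antisense SLC7A11-AS1, which was under the level filter, with counts of 79 and 57 (shCtl) and 13 and 16 (shM2-3). Reads of these 2 genes may not be separated, beside SLC7A11 counts of 332 and 332 (shCtl) and 441 and 305 (shM2-3).

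SLC6A9, the glycine transporter GLYT1, was expressed at a low level and was called higher. Its counts were 110 and 104 (shCtl) and 264 and 230 (shM2-3), an RPKM of 1.27 and 1.18 against 2.50 and 2.40 (log2 fold change 1.06, standard error 0.163, adjusted p = 5.08e-05). SLC6A9 lies on chromosome 1 from 43991500 to 44031467, and CCDC24, whose exons it overlaps, did not pass (log2 fold change -0.28). On the log2(RPKM + 1) scale the SLC6A9 change was 0.63. SLC7A1, the cationic amino acid transporter, rose from 10.0 and 10.3 to 11.7 and 12.3 (log2 fold change 0.30, adjusted p = 0.000135). The glutamate carrier SLC1A3, the neutral amino acid carrier SLC1A4 and the lysosomal exporter SLC36A1 did not pass, with log2 fold changes of 0.22, -0.20 and 0.34. SLC36A1 had an adjusted p of 0.0732, and of 0.0496 without shCtl replicate 2.

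Genes around these 48 were read from 10 lists of related functions, in which 120 of 127 symbols were matched and 104 were tested. Of the 104, 10 were called lower and 11 higher, shares of 9.62% and 10.6% that lie close to those of all genes. Without the fold limit 53 fell and 30 rose, beside 36.4% and 36.3% of all genes tested. The counts of genes that fell or rose in each list below are to be read beside the same shares. Among the 14 genes of eIF2α phosphorylation and exchange, 9 fell and 2 rose, with a median log2 fold change of -0.24. EIF2AK4, which encodes GCN2, fell by 0.32, while EIF2AK3, which encodes PERK, rose from an RPKM of 4.58 and 5.31 to 8.40 and 8.43 (log2 fold change 0.83). PPP1R15A, the stress-induced subunit that directs the phosphatase to eIF2α, went from 64.0 and 63.0 to 24.5 and 26.4 and was the 1 gene of the list called (log2 fold change -1.25, standard error 0.0511, adjusted p = 7.33e-11).

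Among 17 other genes known as ATF4 targets, 9 fell and 5 rose, with a median of -0.21. DDIT4, an inhibitor of mTORC1, was called lower (144 and 147 against 64.4 and 70.2, log2 fold change -1.05), but was at -0.98 without shM2-3 replicate 1. GDF15, a secreted stress cytokine, was called higher from 12 and 30 counts to 146 and 149 (log2 fold change 2.67, standard error 0.337). CCPG1, a receptor for autophagy of the endoplasmic reticulum, was also called higher (log2 fold change 1.03), and at 0.99 with total counts it was under the limit. The aminoacyl-tRNA synthetases in this list ranged from EPRS1, which fell by 0.65, to WARS1, which rose by 0.45.

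In the list of serine, glycine, folate and purine genes, TYMS, thymidylate synthase, was the 1 called gene of 13 (log2 fold change -1.04), and 6 fell and 1 rose. In the methionine cycle the 5 tested genes divided: MAT2A, which makes S-adenosylmethionine, rose from an RPKM of 27.6 and 29.4 to 58.3 and 55.6 (log2 fold change 1.06, standard error 0.0480, adjusted p = 2.12e-10), and by 0.97 on the log2(RPKM + 1) scale. AHCY, which clears the methylation product, fell by 0.91. The ratio of MAT2A to AHCY RPKM was 0.327 and 0.347 in shCtl and 1.35 and 1.30 in shM2-3. Of 10 genes of polyamine control and breakdown 4 fell and 3 rose, beside 36.4% and 36.3% of all genes tested. SMOX, spermine oxidase, had the highest log2 fold change of these at 0.83. OAZ1, the antizyme that brings ODC1 to degradation, fell by 0.80, and the ratio of ODC1 to OAZ1 RPKM went from 0.0815 and 0.0845 to 0.0663 and 0.0648.

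ARG2, the mitochondrial arginase that supplies ornithine, fell further than any of the 48 genes, its counts going from 747 and 685 (shCtl) to 100 and 94 (shM2-3). Its RPKM was 16.7 and 15.1 against 1.82 and 1.91, a log2 fold change of -3.02 (standard error 0.121, adjusted p = 5.78e-11). OAT, which links ornithine to proline synthesis, fell by 0.75. Among genes of glutamate and aspartate 4 of 5 fell, with ASL, argininosuccinate lyase, called lower (log2 fold change -1.13), and in branched-chain breakdown 4 of 5 fell, with BCKDHA called lower (log2 fold change -1.23). Of 12 further amino acid transporters 5 were called higher and 0 lower, beside 9.24% and 8.93% of all genes, and 5 fell under the fold limit. SLC43A2, 1 of the 5 called, passed the level filter only through shM2-3. Others of this list were under that filter in every library and not tested. Among them were SLC16A10, with counts of 219 and 173 (shCtl) and 65 and 40 (shM2-3), and SLC1A2, with 8 and 11 against 60 and 60. SLC43A2, a carrier of large neutral amino acids, rose from an RPKM of 0.447 and 0.468 to 3.94 in both libraries (log2 fold change 3.17, standard error 0.107), and SLC38A7, a lysosomal glutamine carrier, from 1.95 and 1.87 to 6.95 and 6.86 (log2 fold change 1.92). The mitochondrial carriers SLC25A13 and SLC25A22 were called higher at 1.17 and 1.14.

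**Figure D4:**
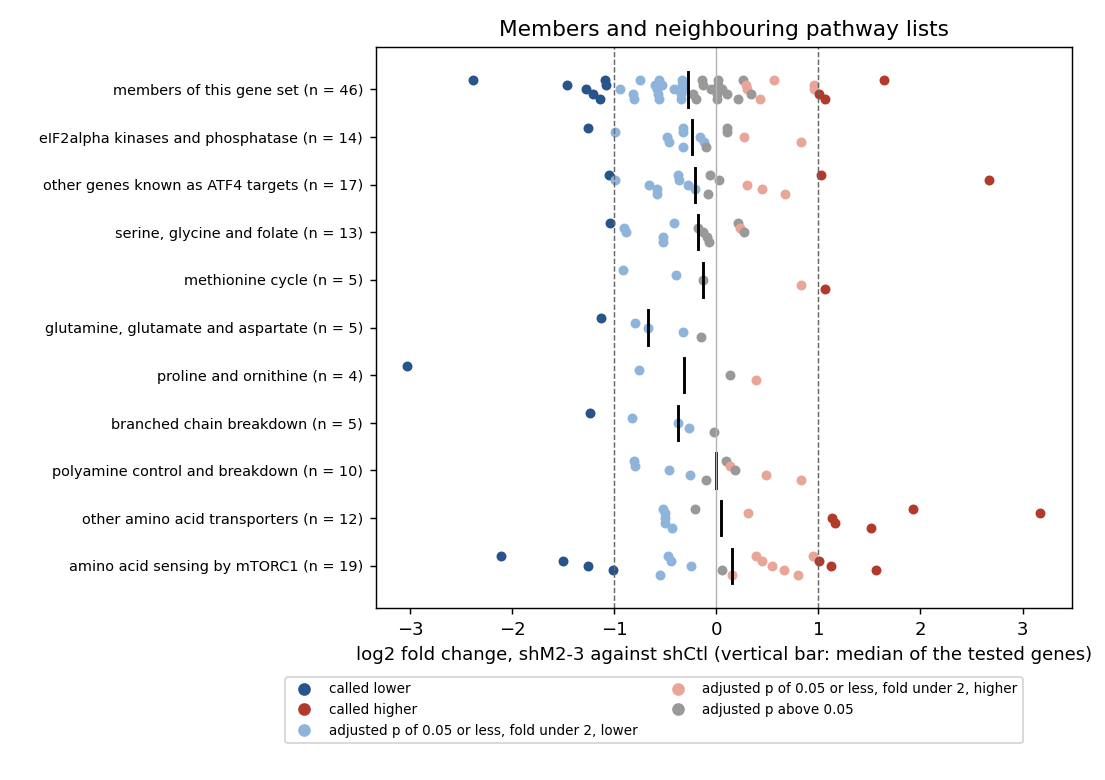
log2 fold change of each tested gene (points, with the vertical offset only to separate them) and the median (black bar) for the 46 members and for the 10 related lists, colored by the result of edgeR's quasi-likelihood test, with dashed lines at a fold change of 2. Medians lie between -0.67 in glutamine, glutamate and aspartate and 0.16 in amino acid sensing by mTORC1, and each of the lists holds genes on both sides of 0 except the glutamine and branched-chain lists.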

How the data were processed

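RNA-seq was made from 2 shCtl and 2 shM2-3 libraries of ES-2 cells (non-strand-specific, paired reads of 150 bases). Per the submitters' processing notes and the paper's methods, the authors aligned to hg38 with HISAT2 2.0.4, dropped reads that aligned ambiguously or with low quality, and quantified RefSeq transcripts in Partek 7.18. They deposited estimated counts, which are not normalized and not all whole, and RPKM values, scaled by transcript length and mapped reads. RPKM is given for levels. It scales libraries differently from the fit: over all genes tested the median log2 ratio of shM2-3 to shCtl was -0.070 in RPKM and -0.0037 in the fit.

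The design had assumed counts. Because the deposited values were estimates, they were rounded before the quasi-likelihood test of edgeR 4.0.16 (R 4.3.3; TMM scaling, glmQLFit and glmQLFTest, Benjamini-Hochberg adjustment). Genes entered where any library had an RPKM over 1. The standard error is the log2 fold change divided by the square root of F. The script was tested on simulated data. Alternatives used DESeq2 1.42.0, limma 3.58.1, other scalings, filters and fold limits, a replicate block and libraries left out in turn.

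The members, the lists and the motifs were chosen with earlier results of these data known, and the ratios of genes after values were seen, so neither the lists nor the ratios were tested as such. All members are accounted for: called genes, the main regulators and the extremes of each role group by the value of every library, the others at least by range and count, and untested genes by their counts. Related genes were named where called, and those named without a call were chosen after their values were seen. Exons of ATF5, VLDLR, PYCR1, PYCR3 and SLC1A5 also overlap other genes, and pseudogenes are annotated for ATF4, ASNS, PSAT1, AMD1, GLUL, SRM and SLC7A5 among others, so some of their reads could be split. Positions and exon overlaps come from GENCODE v44 on hg38, and promoters from RefSeq on GRCh38.p14.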

Additional observations from a re-analysis of the deposited data

How the results depend on the processing

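The 7 genes called lower stayed called in each alternative that kept the fold limit (DESeq2, DESeq2 size factors, total counts, other filters, limma on RPKM, the replicate block and each library left out). With a fold limit of 1.5, 12 members were called lower and 5 higher, and without a limit 23 and 9. Those called higher were 1 with an RPKM above 5 required, since GLUL and SLC6A9 were then not tested, 1 with limma on log2(RPKM + 0.1) and 0 with limma on log2(RPKM + 1), where 9 members were higher at an adjusted p of 0.05 or less and 9 at an unadjusted p under 0.05. Leaving out each library in turn gave 7 lower and between 3 and 4 higher members, and a median between -0.30 and -0.22. The median was -0.31 with total counts, -0.30 without a filter, -0.33 with an RPKM above 5 required, -0.34 with limma on log2(RPKM + 0.1) and -0.30 with limma on log2(RPKM + 1). Of all genes tested, 608 were called lower and 647 higher with an RPKM above 5 required, 596 higher with log2(RPKM + 1), 2302 and 2296 at a fold of 1.5, and 4430 and 4414 without a fold limit. Leaving out each library gave between 1069 and 1088 lower and between 1099 and 1162 higher. In the related lists 22 were lower and 18 higher at a fold of 1.5, 53 and 30 without a limit, and 5 higher with log2(RPKM + 1), where GDF15 was at 1.69, SLC43A2 at 1.76 and DEPTOR at -0.92. Leaving out each library gave between 8 and 12 lower and between 10 and 11 higher in them.

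Signs changed in 5 genes near 0 that did not pass: STC2 was -0.0068 and -0.0066 with limma on log2(RPKM + 0.1) and log2(RPKM + 1). With total counts, no filter and those 2 limma fits in turn, PSPH was -0.014, -0.0093, -0.043 and -0.040, BCAT1 -0.028, -0.024, -0.059 and -0.056, AMD1 -0.031, -0.027, -0.062 and -0.059, and SLC7A11 -0.015, -0.012, -0.058 and -0.034. Leaving out each library gave values between -0.048 and 0.094 for PSPH, -0.00075 and 0.018 for BCAT1, -0.0047 and 0.013 for AMD1, and -0.18 and 0.19 for SLC7A11. Same-numbered libraries did not deviate together (correlation 0.0237 over 11051 genes), which cannot show whether they were handled as a pair. With the replicate block 7 members were called lower and 3 higher, and 1079 and 1123 of all genes. With 2 libraries per group an SD is rough, and genes under about 100 counts, such as NUPR1, carry much counting error.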

Other observations

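The list of 19 genes by which mTORC1 senses amino acids held genes that moved in both directions. Of the 19, 8 fell and 10 rose, beside 36.4% and 36.3% of all genes tested, and 4 were called lower and 3 higher, beside 8.93% and 9.24%. The median log2 fold change was 0.16. Called lower were RRAGD, a Rag GTPase (RPKM 4.12 and 4.46 in shCtl, 1.06 and 0.830 in shM2-3, log2 fold change -2.11), DEPTOR, an mTOR inhibitor (-1.50), RHEB, the GTPase that activates mTORC1 (45.3 and 47.1 against 17.8 and 19.2, -1.26), and NPRL2, a subunit of GATOR1 (-1.02). Called higher were the arginine sensor CASTOR1 (3.74 and 5.59 against 13.2 and 13.2, log2 fold change 1.56), its relative CASTOR2 (1.12) and TSC1 (1.007). NPRL2 was at -0.87 without shM2-3 replicate 1 and at -0.998 without shCtl replicate 1, both under the limit. TSC1 was under it as well, at 0.992 without shCtl replicate 1, at 0.995 without shM2-3 replicate 2 and at 0.971 with total counts. SLC38A9, the lysosomal arginine-sensing transporter, was called higher (counts of 179 and 139 against 465 and 537, log2 fold change 1.52). MTOR and RPTOR rose by 0.80 and 0.95 on the log2 scale, under the fold limit. CASTOR3P, a pseudogene related to CASTOR2, is annotated, so reads of CASTOR2 could be split. These adjusted p values, from edgeR's quasi-likelihood test, were 2.61e-05 or less for every gene named as called.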
